A study of Mus musculus with 24 samples.

Results

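Smooth muscle contractile genes encode the actin, myosin and accessory proteins with which the cells of the vessel wall shorten. Here they are 9 genes fixed by name: *Acta2*, *Actg2*, *Myh11*, *Mylk*, *Tagln*, *Cnn1*, *Lmod1*, *Smtn* and *Myocd*. Of these, 8 are among the 14159 named genes of the deposited expression matrix and were followed across all 8 groups of the study, while *Myocd*, the master coactivator of the programme, was not analysed here.

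Bulk RNA sequencing had been performed on quadriceps muscle of young female C57BL/6J (B6) and MRL/MpJ (MRL) mice, with 3 libraries in each group and 24 in all. MRL mice are an autoimmune-prone inbred strain known for scar-poor closure of ear wounds, and B6 mice are the common reference strain. In each strain, muscle was either uninjured or carried a volumetric muscle loss defect, a surgical removal of muscle tissue, that was filled with saline (the control injury), with a powder of decellularized porcine intestinal extracellular matrix (ECM) or with polyethylene powder (PE), and injured muscle was taken 21 days after surgery. Both are inbred strains, and no transgene or engineered allele is named for any group. Whole muscle was sequenced, and each value is relative to its library. A lower value can mean fewer cells of a type, less RNA per cell or more RNA from other cells. The values cannot tell these apart.

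In skeletal muscle, contractile smooth muscle cells form the media of arterioles and small arteries, where calcium entry activates the kinase MYLK, the kinase phosphorylates myosin light chain, and MYH11 filaments then pull on filaments of the actins ACTA2 and ACTG2. CNN1 and TAGLN bind those actin filaments, and LMOD1 nucleates and lengthens them. *Acta2* and *Tagln* are also switched on in myofibroblasts, the contractile fibroblasts of scars and implant capsules, and SMTN and the short product of *Mylk* are used outside vessels too. The genes are classically driven by serum response factor (SRF) together with MYOCD or the MRTF coactivators, bound at CArG boxes, a run of 6 A or T letters between CC and GG.

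The CArG boxes near the start sites of *Tagln* and *Acta2* are shown because these are the pair of genes that ran most closely together in the libraries. Each stretch has 30 bases on the minus strand of GRCm39, written 5′ to 3′, with the box in capitals. The *Tagln* box begins 64 bases upstream of the GENCODE start at chr9:45847449-45847478 and matches at all 6 core letters. The boxes of *Acta2* begin 84 and 34 bases upstream of the RefSeq start, lie at chr19:34232838-34232867 and chr19:34232788-34232817, and are each 1 core letter off.

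Tagln: agggtcctgcCCATAAAAGGtttttcccgg
Acta2, 84 bases upstream: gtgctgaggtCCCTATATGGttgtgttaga
Acta2, 34 bases upstream: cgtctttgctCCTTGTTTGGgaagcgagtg

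An exact box was present in the 500 bases upstream of the GENCODE start of 1 of the 8 genes and of 2.48% of 12876 protein-coding genes in the matrix. Allowing 1 core letter off in these windows, it was still 1 of the 8 genes, against 16.3% of the protein-coding genes. Among RefSeq promoter windows of 300 bases, those of 1 of 5 genes and 9.98% of all 32851 held a box with 1 core letter off allowed. An exact box was in none of the windows of the 5 genes and in 1.63% of all windows. The search read these windows only, on the strand of the gene, and the box reads as the same pattern on both strands. The RefSeq windows were read in GRCm38.p6 and the *Acta2* stretches were placed in GRCm39 by exact match. The GENCODE model of *Acta2* starts further upstream than the RefSeq model, so that its upstream window does not reach these boxes.

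Levels are given as log2 CPM, where CPM is the count of a gene per fixed number of reads of its library, in logarithms to base 2 with the small prior that the authors added, on which a count of 0 reads -3.65. Per kilobase of transcript, *Smtn* was the highest of the 8 genes with a mean over all libraries of 26.9 CPM per kb. *Tagln* followed with 15.99 and *Acta2* with 12.7 CPM per kb. *Lmod1* had 6.39, *Mylk* 3.43 and *Myh11* 3.10 CPM per kb, while *Actg2* and *Cnn1*, with 0.348 and 0.345 CPM per kb, were close to the limit of detection. *Cnn1* was at 0 in 2 libraries and *Actg2* in 1, and 1 more library of *Cnn1* and 2 of *Actg2* held 3 counts or fewer (0.119 CPM). No transcript of the 8 genes had a near-identical copy in the matrix. The closest was *Acta1*, the skeletal muscle actin, which matched *Acta2* at 85.6% and *Actg2* at 85.3% of bases over the aligned stretch. Whether reads of *Acta1*, which is very abundant in muscle, were assigned to *Actg2* was not tested.

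Replicate libraries correlated across genes at 0.904 or more in 7 groups and at 0.812 to 0.966 in PE-treated MRL mice, where replicate 2 stood apart. Its summed muscle fibre markers reached 37697 CPM, and those of fibroblasts 15056 CPM and of macrophages 4191 CPM. On the log2 scale its summed fibre markers were at 15.20, against 17.18 and 17.22 in the other two libraries of the group. Those libraries held 2170 and 1524 CPM of fibroblast markers and 232 and 233 CPM of macrophage markers. PE-treated B6 libraries held 5113, 8756 and 4431 CPM of fibroblast markers and 2708, 5020 and 1392 CPM of macrophage markers. All markers of muscle fibres and endothelium were detected in every library, and of the pericyte markers *Kcnj8* was at 0 in 6 libraries.

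**Figure D1:**
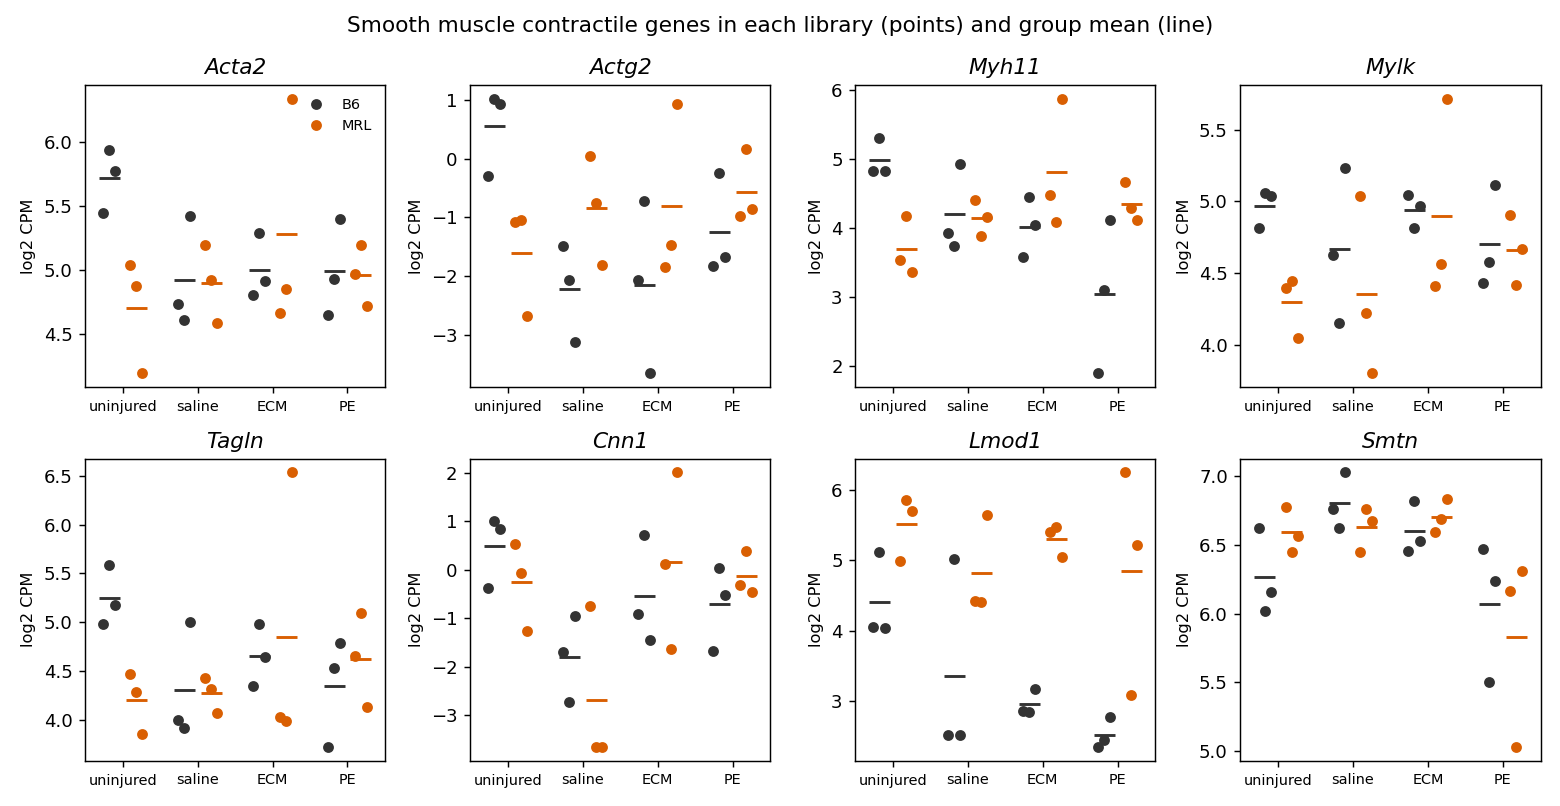
Log2 CPM (vertical axis) of 8 smooth muscle contractile genes in the 4 treatments (horizontal axis) of B6 (black) and MRL mice (orange). Each point is 1 library and each line a group mean. In uninjured muscle the MRL points of Acta2, Actg2, Myh11, Mylk and Tagln lie below all B6 points, and replicate 3 of ECM-treated MRL mice is the highest of 24 libraries for Acta2, Cnn1, Myh11, Mylk and Tagln.

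Before any injury, 5 of the 8 genes were lower in every MRL library than in every B6 library, namely both smooth muscle actins, the myosin *Myh11*, the kinase *Mylk* and *Tagln*. *Acta2*, the major actin of vascular smooth muscle, read 5.45, 5.94 and 5.77 log2 CPM in B6 and 5.04, 4.88 and 4.19 in MRL mice. On the linear scale these are means of 53.1 and 26.7 CPM. The highest MRL library was below the lowest B6 library.

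The fitted difference of *Acta2* was -1.02 ± 0.35 (SE, n = 3 per strain), and it did not pass the threshold over all genes (limma, adjusted p = 0.192). *Myh11*, the heavy chain of smooth muscle myosin and the most specific marker of the lineage, read 4.82, 5.31 and 4.83 in B6 and 3.54, 4.17 and 3.36 in MRL mice, a difference of -1.29 ± 0.48 (limma, adjusted p = 0.237). *Tagln*, which encodes the actin-binding transgelin, differed by -1.05 ± 0.49, *Mylk* by -0.67 ± 0.33 and *Actg2*, the enteric smooth muscle actin that vessels express weakly, by -2.16 ± 0.82. None of the genes was called (lowest adjusted p = 0.192), where 2.6% of all genes were. Of all genes, 9.61% were lower in MRL mice without overlap of the groups. An exact permutation test on 3 against 3 libraries cannot go below p = 0.10, which each of these 5 genes reached.

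*Lmod1* and *Smtn* did not share this direction. *Lmod1* was 1.12 ± 0.65 and *Smtn* 0.33 ± 0.28 higher in MRL mice, with overlapping groups (limma, adjusted p = 0.592 and 0.772). *Cnn1*, the calponin of differentiated smooth muscle, differed by -0.75 ± 0.90, also with overlap. The median difference of the 8 genes was -0.88, against 0.000217 over all genes.

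Endothelial markers were measured in the same libraries. Their summed level was 8.98 to 9.15 log2 CPM in uninjured B6 and 8.37 to 8.95 in uninjured MRL mice, without overlap, and 0 of 10 were called in either direction. The pericyte markers, summed, were at 9.18 to 9.63 in B6 and 9.20 to 9.46 in MRL mice, and 0 of 8 were called. Their part in the strain difference of the contractile genes was not tested. Among 15 signals of smooth muscle tone, 1 was called: *Edn1*, which encodes the vasoconstrictor endothelin-1, fell by 1.95 ± 0.40 from B6 to MRL mice (limma, adjusted p = 0.00765). *Edn1* was not called with these groups fitted alone or without replicate 3 of the MRL group (adjusted p = 0.0718 and 0.0715). Its level was low, at 0.42 to 3.90 CPM over all libraries.

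**Figure D2:**
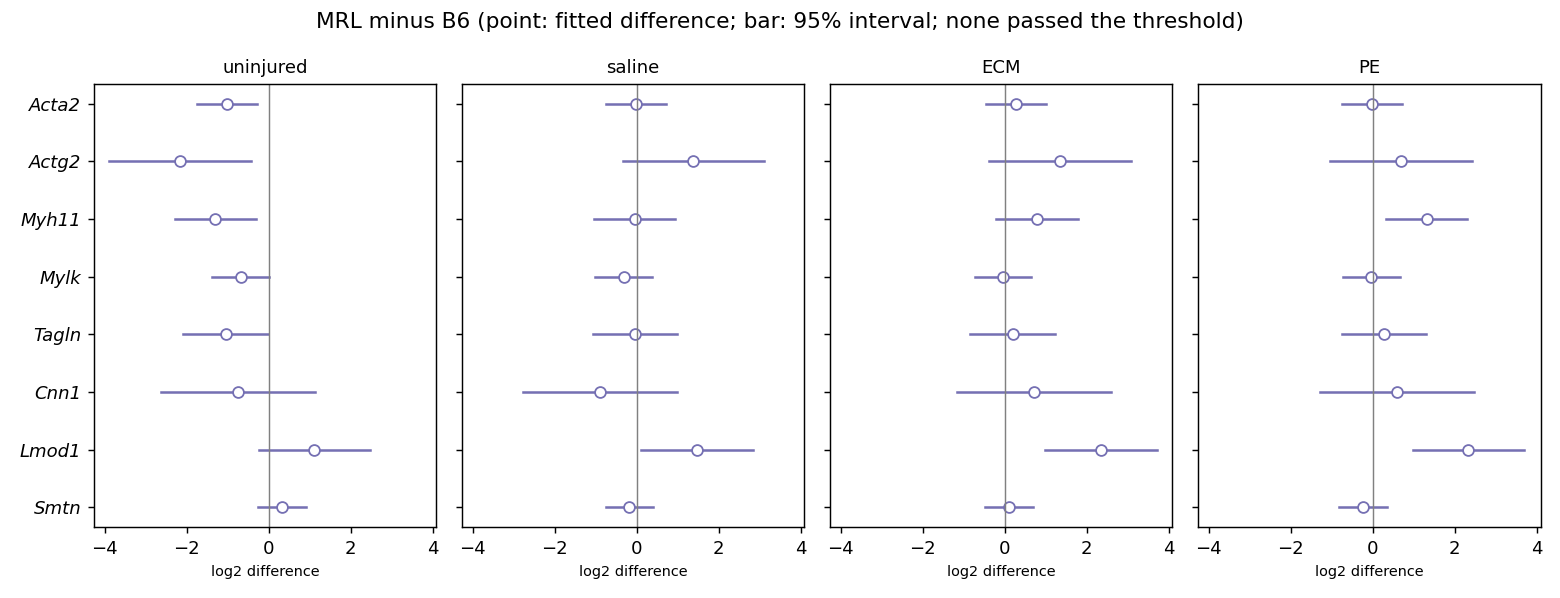
Fitted log2 difference, MRL minus B6 (horizontal axis), of each gene (vertical axis) in uninjured, saline-treated, ECM-treated and PE-treated muscle, with the 95% interval as a bar. Acta2, Actg2, Myh11, Mylk and Tagln sit below 0 in uninjured muscle, between -0.67 and -2.16, and only Lmod1 lies above 0 in all 4 treatments.

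In injured B6 muscle most of the contractile genes had lower values than in uninjured muscle. *Myh11* and *Lmod1* fell with PE, and these were the only calls of the 8 genes in 19 comparisons. In B6 mice, *Myh11* read 4.82, 5.31 and 4.83 in uninjured muscle, 3.93, 3.74 and 4.93 after the control injury, 3.58, 4.44 and 4.04 with ECM and 1.90, 3.11 and 4.12 with PE. All injured B6 libraries except replicate 3 of the control injury were below the lowest uninjured value, and the PE libraries had the widest range. The mean of *Myh11* went from 32.0 CPM in uninjured to 9.82 CPM in PE-treated muscle.

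*Myh11* fell by 1.95 ± 0.48 on the log2 scale with PE in B6 mice (SE, n = 3 per group, limma, adjusted p = 0.0103), with no overlap of the groups. The value of replicate 1 was the lowest of all 24 libraries. Without this replicate the difference was -1.37 (adjusted p = 0.0501), and without replicate 2 it was -1.98 (adjusted p = 0.0501). *Lmod1*, the leiomodin of smooth muscle, read 4.05, 5.12 and 4.04 in uninjured muscle, 2.51, 5.02 and 2.52 after the control injury, 2.85, 2.84 and 3.17 with ECM and 2.34, 2.45 and 2.77 with PE. The ECM and PE libraries were all below the uninjured ones, while replicate 2 of the control injury was not. *Lmod1* fell by 1.88 ± 0.65 with PE (limma, adjusted p = 0.042), from a mean of 22.5 to 5.71 CPM. This call was lost without any 1 of the 6 libraries, with adjusted p between 0.0559 and 0.133, and with libraries scaled to equal totals (-1.47, adjusted p = 0.0592).

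These 2 of 8 genes called compare with 24.8% of all genes in PE-treated against uninjured B6 muscle, and with 10% called lower. All 8 genes were lower with PE, with a median difference of -1.05 (-0.66 without replicate 1 of the PE group) against 0.02 over all genes, except that *Mylk* and *Smtn* were higher with libraries scaled to equal totals and *Smtn* was higher with library weights or without replicate 2 of the PE group. For 4 of the 8, *Acta2*, *Myh11*, *Tagln* and *Lmod1*, the groups did not overlap, as for 24.1% of all genes in the lower direction. Overlap was read on the deposited scale throughout, and not with libraries scaled to equal totals. The deposited values summed to 1025596 to 1128643 CPM in uninjured B6 libraries and to 747291 to 863251 CPM in PE-treated ones. Without replicate 2 of the PE group, 533 genes were called instead of 3508.

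*Acta2* read 5.45, 5.94 and 5.77 in uninjured muscle, 4.74, 4.61 and 5.43 after the control injury, 4.80, 5.29 and 4.92 with ECM and 4.65, 4.93 and 5.40 with PE. On the deposited scale every injured library was below every uninjured one, replicate 3 of the control injury only narrowly. Over the repeated tests the PE difference of *Acta2* ran from -0.93 to -0.31. The differences were -0.80 ± 0.35 after the control injury, -0.71 ± 0.35 with ECM and -0.73 ± 0.35 with PE, and none was called (limma, adjusted p = 0.377, 0.304 and 0.125). *Tagln* read 4.98, 5.59 and 5.17 in uninjured muscle, 4.0007, 3.92 and 4.9980 after the control injury, 4.35, 4.98 and 4.64 with ECM and 3.72, 4.53 and 4.79 with PE. Replicate 3 of the control injury overlapped the uninjured libraries, and the other injured libraries were all below them, replicate 2 with ECM only narrowly. The PE difference of *Tagln* was -0.90 ± 0.49 (limma, adjusted p = 0.171).

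*Actg2* read -0.30, 1.02 and 0.93 in uninjured muscle, -1.48, -2.06 and -3.13 after the control injury, -2.07, -0.72 and -3.65 with ECM and -1.82, -0.24 and -1.67 with PE. The uninjured libraries were above all those with the control injury or ECM. It differed by -2.77 ± 0.82 after the control injury, -2.70 ± 0.82 with ECM and -1.80 ± 0.82 with PE (limma, adjusted p = 0.288, 0.138 and 0.109). *Cnn1* read -0.38, 1.01 and 0.85 in uninjured muscle, -1.69, -2.73 and -0.94 after the control injury, -0.90, 0.73 and -1.44 with ECM and -1.66, 0.05 and -0.51 with PE. Its groups failed to overlap only after the control injury, with a difference of -2.28 ± 0.90 (limma, adjusted p = 0.333). The values of both genes rest on few reads.

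After the control injury, 3 of the 8 genes lay below uninjured B6 muscle without overlap, against 7.34% of all genes, and 0 were called, as for 0% of all genes. With ECM these were 5 genes, against 14.6%, and 0 were called, against 0.424% of all genes. *Mylk*, which encodes the kinase that starts contraction, moved least of the vascular genes. Its injured B6 libraries spanned 4.15 to 5.23 log2 CPM and the uninjured ones 4.81 to 5.06. *Smtn* was higher by 0.53 ± 0.28 after the control injury and by 0.33 ± 0.28 with ECM, and lower by 0.20 ± 0.28 with PE, so that PE was below the control injury by 0.73 ± 0.28 without overlap (limma, adjusted p = 0.11).

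The 3 treatments share the uninjured libraries, so their differences are not independent. Between the treatments themselves, the differences in B6 mice went both ways. They ran from -0.39 for *Lmod1* to 1.25 for *Cnn1* with ECM against the control injury, from -1.16 for *Myh11* to 1.08 for *Cnn1* with PE against the control injury, and from -0.90 for *Actg2* to 0.98 for *Myh11* with ECM against PE. In each, 0 of the 8 genes were called (4, 845 and 32 genes in all, or 0.0283%, 5.97% and 0.226%). With library weights *Myh11* was called in both comparisons of PE, at -1.65 against the control injury and 1.64 for ECM against PE (adjusted p = 0.0121 and 0.00876). The weight of PE replicate 1, the lowest *Myh11* library, was 5.93, against 0.396 and 1.25 for PE replicates 2 and 3.

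**Figure D3:**
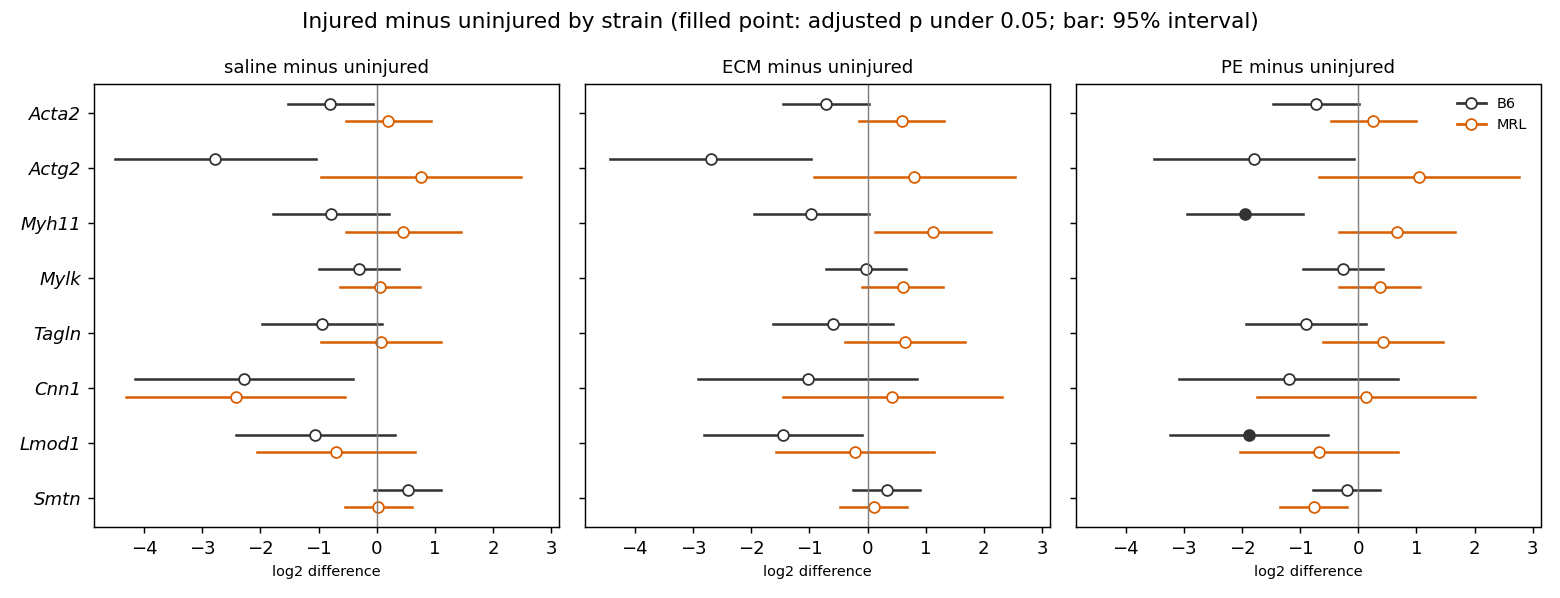
Fitted log2 difference from uninjured muscle (horizontal axis) of each gene (vertical axis) with the control injury, ECM and PE in B6 (black) and MRL mice (orange), with the 95% interval as a bar and filled points for adjusted p under 0.05. B6 points lie mostly below 0 and MRL points mostly above, and only Myh11 and Lmod1 in PE-treated B6 mice are filled.

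In MRL mice none of the 8 genes was called against uninjured muscle in any treatment. *Myh11* read 3.54, 4.17 and 3.36 in uninjured muscle, 4.41, 3.88 and 4.16 after the control injury, 4.48, 4.09 and 5.87 with ECM and 4.66, 4.28 and 4.11 with PE. The injured MRL libraries overlapped or exceeded the uninjured ones, the reverse of the order in B6 mice. *Acta2* read 5.04, 4.88 and 4.19 in uninjured muscle, 5.20, 4.92 and 4.58 after the control injury, 4.66, 4.85 and 6.34 with ECM and 4.97, 5.20 and 4.72 with PE. Here the uninjured group had the lowest mean of all 8 groups, 4.70, where uninjured B6 muscle had the highest, 5.72. *Tagln* read 4.46, 4.28 and 3.86 in uninjured muscle, 4.43, 4.32 and 4.07 after the control injury, 4.03, 3.99 and 6.54 with ECM and 4.65, 5.09 and 4.13 with PE. Replicate 3 with ECM was far above the other two.

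The median differences of the 8 genes from uninjured MRL muscle were 0.06 after the control injury (-0.0616 without replicate 3 of the uninjured group), 0.59 with ECM and 0.31 with PE. *Myh11* differed by 1.12 ± 0.48 with ECM (limma, adjusted p = 1), and by 0.59 without replicate 3 of the ECM group. *Actg2* read -1.08, -1.05 and -2.68 in uninjured muscle, 0.05, -0.76 and -1.81 after the control injury, -1.85, -1.48 and 0.92 with ECM and -0.97, 0.16 and -0.86 with PE. With PE it was above the uninjured group without overlap, by 1.04 ± 0.82 (limma, adjusted p = 0.361). *Cnn1* read 0.54, -0.06 and -1.25 in uninjured muscle, -0.74, -3.65 and -3.65 after the control injury, 0.12, -1.62 and 2.01 with ECM and -0.31, 0.39 and -0.45 with PE. The saline libraries held both of its values of 0, and *Cnn1* was 2.56 ± 0.90 higher with PE than after the control injury (limma, adjusted p = 0.13). It was called there without replicate 1 of the saline group, at 3.53 (adjusted p = 0.0401).

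*Smtn* read 6.78, 6.45 and 6.57 in uninjured muscle, 6.45, 6.76 and 6.67 after the control injury, 6.59, 6.69 and 6.84 with ECM and 6.16, 5.03 and 6.31 with PE. The PE libraries were all below the rest, and replicate 2, the library that stood apart, was the lowest of 24. *Smtn* was 0.76 ± 0.28 lower with PE than in uninjured muscle (limma, adjusted p = 0.0675), called at -0.93 and -1.002 without replicate 1 or 3 of the PE group (adjusted p = 0.0413 and 0.0258) and at -0.36 not called without replicate 2 (adjusted p = 0.384). Of all genes, 0% were called after the control injury, 0.0141% with ECM and 9.73% with PE. The 1377 genes called with PE became 0 without replicate 1 or 3 of the uninjured group and 1 without replicate 2 of the PE group.

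ECM-treated MRL replicate 3 ranked first of 24 libraries for *Acta2*, *Cnn1*, *Myh11*, *Mylk* and *Tagln*. Its *Mylk* was at 5.72 log2 CPM, against 4.41 and 4.56 in the other two libraries of the group. Summed over the 8 genes it held 438 CPM, against 225 and 233 CPM in the other two. Its fibroblast markers summed to 2392 CPM, against 1257 and 1394, its regenerating fibre markers to 378 CPM, against 91.9 and 178, and its pericyte markers to 414 CPM, against 655 and 618. Their part in the high values was not tested. Without this library the median difference of the 8 genes between ECM-treated and uninjured MRL mice was -0.0071 instead of 0.59.

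Between the treatments of MRL mice, the median difference of the 8 genes was 0.52 for ECM against the control injury, 0.24 for PE against the control injury and 0.31 for ECM against PE. Without ECM-treated MRL replicate 3 the values for ECM were 0.0739 against the control injury and -0.19 against PE. None of the 8 was called in these comparisons (limma, lowest adjusted p = 0.072), where 0.00706%, 0% and 0% of all genes were.

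The direct test of whether the strains responded differently is the difference of the differences, MRL response minus B6 response. It was above 0 for 6 genes after the control injury and for 7 each with ECM and PE, with medians of 0.68, 1.27 and 1.27, against 0.02, -0.0039 and -0.04 over all genes. Without ECM-treated MRL replicate 3 the ECM median was 0.65. None of the 8 genes was called (0%, 0.00706% and 0.0212% of all genes were). The 3 tests share the uninjured libraries of both strains, and the lower starting level of MRL mice enters each of them.

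Those of the low gene *Actg2* were 3.54 ± 1.17, 3.50 ± 1.17 and 2.84 ± 1.17 (limma, adjusted p = 1, 1 and 0.358). On the log2(CPM + 1) scale they were 1.33, 1.36 and 1.16, and with library weights the PE value was 2.91 and called (adjusted p = 0.0256). *Myh11* had 1.25 ± 0.67, 2.09 ± 0.67 and 2.61 ± 0.67 (limma, adjusted p = 1, 1 and 0.277). Without replicate 2 of the PE-treated MRL mice, the PE value of *Myh11* was 2.64 and was called (adjusted p = 0.0271), as it was with library weights (3.24, adjusted p = 0.00196). The weight of that replicate was 0.0939. Replicate 1 of the PE-treated B6 mice, the lowest *Myh11* library of all, had a weight of 5.93. *Acta2* differed by 1.30 ± 0.50 with ECM (limma, adjusted p = 1). Counting unadjusted p under 0.05, 1, 3 and 2 of the 8 genes passed, where 4.03%, 3.62% and 11.7% of all genes did. *Smtn* was the 1 gene below 0 with ECM and with PE, at -0.22 ± 0.39 and -0.57 ± 0.39.

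*Lmod1* was the gene in which the strains stood furthest apart after treatment. In MRL mice it read 4.99, 5.86 and 5.71 in uninjured muscle, 4.42, 4.41 and 5.64 after the control injury, 5.41, 5.47 and 5.05 with ECM and 6.25, 3.08 and 5.21 with PE. All MRL libraries with ECM and with PE were above all B6 libraries of the same treatment. The difference between strains was 1.47 ± 0.65 after the control injury, 2.35 ± 0.65 with ECM and 2.33 ± 0.65 with PE (limma, adjusted p = 0.334, 0.0624 and 0.0552). After the control injury it was 2.31 and called without B6 replicate 2 (adjusted p = 0.0368), and 2.17 and called with library weights (adjusted p = 0.00354). Over all genes, 2.51%, 2.66% and 3.35% were called in these comparisons.

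With ECM the groups were at 2.84 to 3.17 in B6 and 5.05 to 5.47 in MRL mice, and *Lmod1* was called when these groups were fitted alone (adjusted p = 0.000685) and with library weights (2.47, adjusted p = 0.000837). With PE the difference without MRL replicate 2 was 3.21 (adjusted p = 0.000581), and without MRL replicate 1 it was 1.63 (adjusted p = 0.354). Replicate 2 was the MRL library nearest to PE-treated B6 muscle in *Lmod1*. Its macrophage markers were in the range of the PE-treated B6 libraries, and those of the other libraries of its group were below that range. Its fibroblast markers were above the range of the PE-treated B6 libraries and its muscle fibre markers below it. Their part in its *Lmod1* value was not tested. With the 1.12 in uninjured muscle, *Lmod1* was the 1 gene of the 8 that was higher in MRL mice in every treatment. The differences of the responses of *Lmod1* were 0.36 ± 0.92, 1.24 ± 0.92 and 1.21 ± 0.92, and none was called (limma, adjusted p = 1, 1 and 0.679). The PE value was 0.51 without MRL replicate 1 and 2.09 without MRL replicate 2, and with library weights it was 1.88 and called (adjusted p = 0.027).

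Across the 24 libraries, 6 of the genes ran together and *Lmod1* and *Smtn* did not. This split was made after the values were seen. The 15 pairs among *Acta2*, *Tagln*, *Mylk*, *Myh11*, *Cnn1* and *Actg2* had Pearson correlations between 0.31 and 0.94, with a median of 0.66, and with a median of 0.73 once group means were removed. *Acta2* and *Tagln*, the pair whose CArG boxes are printed, were closest at r = 0.94 (Spearman 0.94). Without ECM-treated MRL replicate 3 the 15 correlations spanned 0.16 to 0.92. These values share libraries, tissue pieces and depth, and are given as a description.

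*Lmod1* correlated with the 6 at -0.28 to 0.31 and *Smtn* at -0.41 to 0.10. *Lmod1* ran instead with *Ttc28*, *Zfp467* and *Cry2*, a clock repressor, at 0.94, 0.93 and 0.93. *Smtn* ran with *Rapsn*, which anchors acetylcholine receptors at the nerve-muscle junction, *Itgb1bp2*, the muscle chaperone melusin, and *Dmpk*, a kinase of muscle fibres, at 0.95, 0.94 and 0.94. By Spearman correlation these were 0.86, 0.80 and 0.79, and within groups the Pearson values were 0.90, 0.90 and 0.91. The genes named for *Lmod1* and *Smtn* were the highest of all genes, and PE-treated MRL replicate 2 was the lowest *Smtn* library. With the summed muscle fibre markers *Smtn* had r = 0.72, or 0.03 without the 2 libraries farthest in the fibre markers, and 0.67 within groups. *Lmod1* had 0.56 with fibre markers, and -0.71, -0.70 and -0.69 with those of regenerating fibres, fibroblasts and macrophages.

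**Figure D4:**
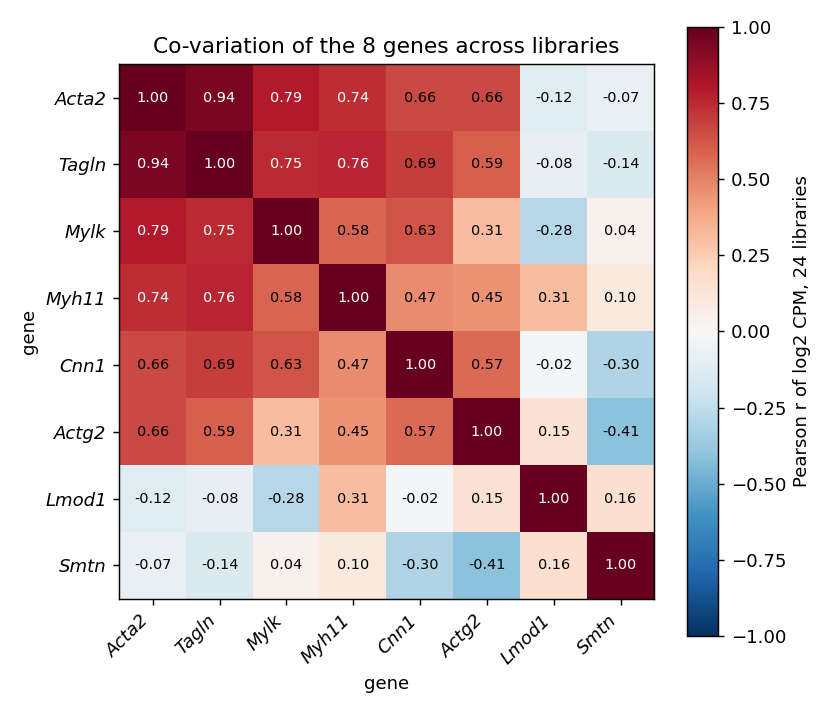
Pearson correlation of log2 CPM between each pair of the 8 genes over 24 libraries, from blue (-1) through white (0) to red (1). Acta2, Tagln, Mylk, Myh11, Cnn1 and Actg2 form a block between 0.31 and 0.94, and the rows of Lmod1 and Smtn lie between -0.41 and 0.31.

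The 10 genes outside the list that were most like the mean of the 8 standardised genes over 24 libraries included known smooth muscle genes. *Susd5* and *Cytl1* led, each with r = 0.86, before *P2rx1*, the purinergic receptor of arteriolar muscle, with 0.83. *Myl9*, the smooth muscle regulatory light chain, and *Ppp1r14a*, which encodes the myosin phosphatase inhibitor CPI-17, each had 0.77. *Bmx* with 0.72, *Tinagl1* with 0.71, *4930523C07Rik* and *Foxc1* with 0.69 each and *Mall* with 0.67 completed the list. Without ECM-treated MRL replicate 3 the values spanned 0.54 for *4930523C07Rik* to 0.86 for *Cytl1*. *Susd5* was then at 0.79, *P2rx1* at 0.75, and *Myl9* and *Ppp1r14a* at 0.65 each. The mean levels of *Susd5*, *P2rx1* and *Bmx* were low, at 0.69, -0.53 and -0.23 log2 CPM.

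Of 13 measured further genes of smooth muscle from a list set apart from the 8, 2 fell and 1 rose with PE in B6 mice, where 24.8% of all genes were called in either direction. *Myl9* fell by 0.95 ± 0.24 and *Synpo2*, an actin-binding protein of smooth and striated muscle, by 1.31 ± 0.45, while the actin crosslinker *Flna*, which most cells express, rose by 1.94 ± 0.62 (limma, adjusted p = 0.0114, 0.042 and 0.0323). Their median was -0.81. In PE-treated MRL mice 1 of the 13 rose, against 5.95% of all genes. This was *Csrp1*, by 1.14 ± 0.31 (limma, adjusted p = 0.0448), and the median was 0.28. Without replicate 2 of the PE group the 3 genes were not called in B6 mice (adjusted p = 0.0788, 0.235 and 0.153). *Csrp1* was not called without replicate 2 of the PE group or replicate 1 or 3 of the uninjured group (adjusted p = 0.201, 0.109 and 0.188), after quantile normalization (0.0627), with these groups fitted alone (0.24) or with the replicate block (adjusted p = 0.0504). With libraries scaled to equal totals *Myl9* and *Synpo2* were at -0.54 and -0.90 and not called (adjusted p = 0.129 and 0.0568), and *Synpo2* was not called after quantile normalization or with the replicate block either (adjusted p = 0.0627 and 0.0502). Of 9 measured regulators of the programme 0 were called in any of the 19 comparisons, *Srf* included.

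Among 15 signals that act on smooth muscle, 3 rose and 1 fell with PE in B6 mice, where 14.7% of all genes rose and 10% fell. *Tgfb1*, the cytokine that drives contractile genes in fibroblasts, rose by 3.06 ± 0.60, *Rock1* by 1.00 ± 0.32 and *Rhoa* by 0.69 ± 0.24, and *Adra1a*, an adrenergic receptor of vessels, fell by 2.56 ± 0.75 (limma, adjusted p = 0.00344, 0.0318, 0.0426 and 0.0224). In MRL mice 5 of 15 rose, where 5.95% of all genes did, among them the endothelin receptor gene *Ednra* by 1.52 ± 0.40, *Edn1* by 1.49 ± 0.40 and *Tgfbr2* by 1.13 ± 0.30 (limma, adjusted p = 0.0448 each). Without replicate 2 of the PE group, *Tgfb1* was still called in B6 mice, while the other three were not (adjusted p = 0.164 for *Rock1*, 0.221 for *Rhoa* and 0.0891 for *Adra1a*). *Rhoa* was also not called with these groups fitted alone (adjusted p = 0.0513). The 3 genes named in MRL mice lost their calls without replicate 2 of the PE group or replicate 1 or 3 of the uninjured group (adjusted p between 0.109 and 0.196), after quantile normalization, with these groups fitted alone and with the replicate block (adjusted p = 0.0504 each).

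Relatives from the same protein families, most of them not of smooth muscle, were set beside the 8 genes in PE-treated B6 muscle. Of 17 measured relatives, 5 rose and 3 fell there, where 14.7% and 10% of all genes did, and their median was -0.70. The non-muscle actin *Actb* rose by 1.76 ± 0.42, the calponin *Cnn2* by 1.56 ± 0.53 and the transgelin *Tagln2* by 2.09 ± 0.65, while *Smtnl1* fell by 2.56 ± 0.70 (limma, adjusted p = 0.00944, 0.0399, 0.0278 and 0.0169). Named after their values were seen, *Actg1* and the non-muscle myosin *Myh9* rose by 1.37 ± 0.39 and 1.35 ± 0.36 (limma, adjusted p = 0.0198 and 0.0156). None of these 6 was called without replicate 2 of the PE group (adjusted p between 0.073 and 0.176). The remaining called relatives fell, *Mylk2* by 1.55 ± 0.45 and *Lmod3* by 1.18 ± 0.38 (limma, adjusted p = 0.0216 and 0.0318). The non-muscle myosins *Myh10* and *Myh14* were 0.70 ± 0.32 and 0.61 ± 0.41 lower without overlap and not called (limma, adjusted p = 0.106 and 0.268). *Mylk2*, *Lmod3*, *Myh10* and *Myh14* are left out of the checks on processing given at the end. In the same muscle *Acta2* was at -0.73, *Cnn1* at -1.20, *Tagln* at -0.90 and *Myh11* at -1.95.

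**Figure D5:**
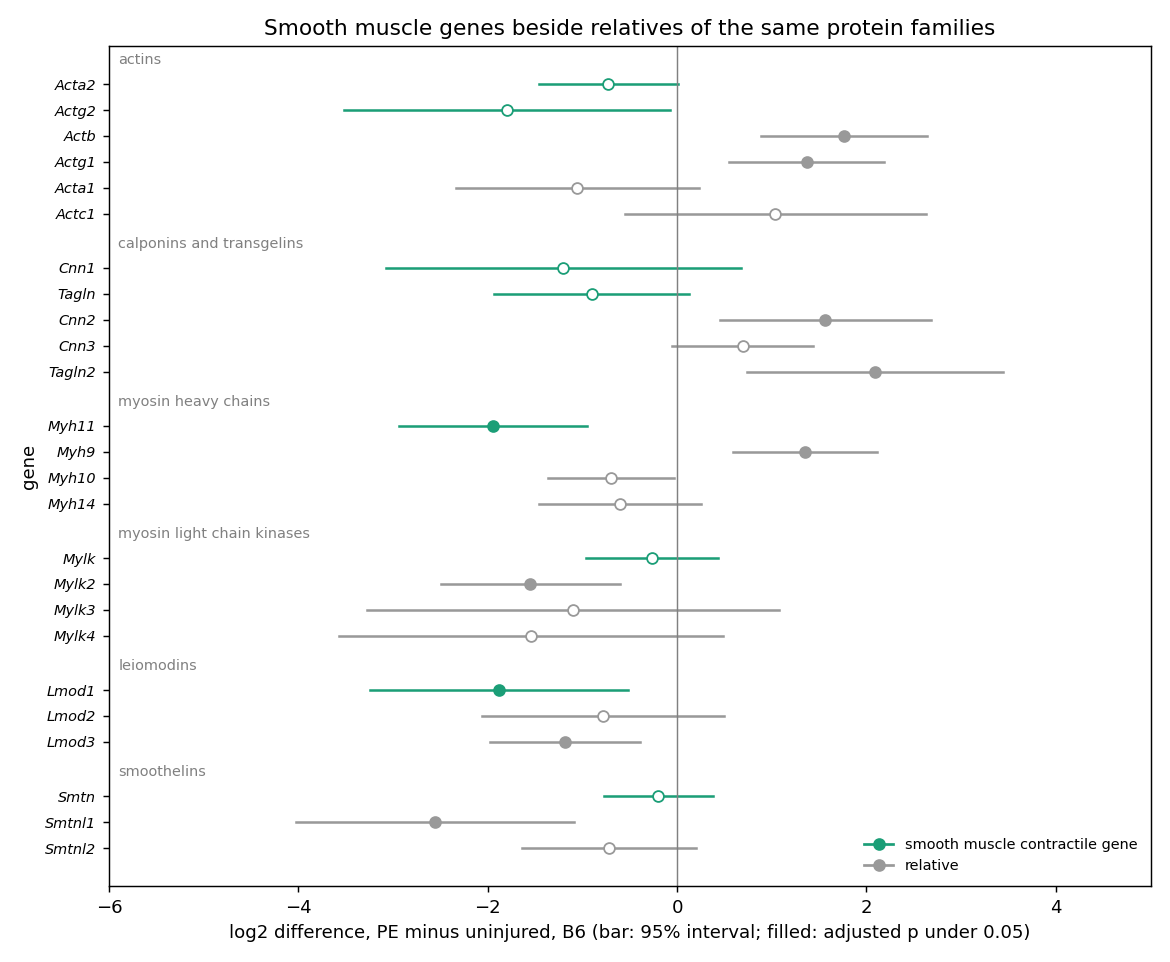
Fitted log2 difference between PE-treated and uninjured B6 muscle (horizontal axis) of 8 smooth muscle contractile genes (green) and 17 relatives (grey), grouped by protein family (vertical axis), with the 95% interval as a bar and filled points for adjusted p under 0.05. Actb, Actg1, Cnn2, Tagln2 and Myh9 lie between 1.35 and 2.09, and the smooth muscle members of their families between -0.73 and -1.95. The non-muscle myosins Myh10 and Myh14 lie at -0.70 and -0.61.

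Since *Acta2* and *Tagln* also mark myofibroblasts, markers of fibroblasts and myofibroblasts were set beside them. With PE in B6 mice, 4 of 12 such markers rose and 0 fell, with a median of 2.22 and against 14.7% of all genes that rose, and *Col3a1*, *Col1a1*, *Postn* and *Fn1* rose by 2.54 ± 0.65, 2.45 ± 0.73, 2.35 ± 0.75 and 2.25 ± 0.71 (limma, adjusted p = 0.0119, 0.0243, 0.0313 and 0.0299). Without replicate 2 of the PE group these 4 were not called (adjusted p = 0.0808, 0.11, 0.132 and 0.151). The summed list went from 9.93 to 10.41 in uninjured to 12.11 to 13.10 log2 CPM in PE-treated libraries. *Acta2* and *Tagln* were lower in those libraries, by the values given above. With the summed fibroblast markers over all 24 libraries, *Acta2* had r = 0.09 and *Tagln* 0.13, or 0.43 each within groups.

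Markers of vessels were measured too. In PE-treated B6 muscle 5 of 10 endothelial markers fell, where 10% of all genes did, with *Kdr* at -1.39 ± 0.33 and *Tek* at -1.02 ± 0.24, and so did 2 of 8 pericyte markers, *Higd1b* at -1.56 ± 0.39 and *Rgs5* at -1.13 ± 0.30 (limma, adjusted p = 0.00986, 0.00959, 0.0107 and 0.0145). Without replicate 2 of the PE group *Tek* was still called, and *Kdr*, *Higd1b* and *Rgs5* were not (adjusted p = 0.0638, 0.056 and 0.101). With libraries scaled to equal totals *Tek* was at -0.61 and not called (adjusted p = 0.0523). The level of *Higd1b* was low, at 0.62 to 3.34 CPM over all libraries. Without overlap of the groups, 6 of the 10 endothelial markers were lower with PE and 1 was higher, where 24.1% and 27% of all genes were. Summed endothelial markers were at 8.98 to 9.15 in uninjured and 8.36 to 8.66 log2 CPM in PE-treated libraries. *Myh11* had r = 0.55 with this sum over all libraries, 0.38 without the 2 farthest and 0.37 within groups. Of the other cell types, 7 of 8 regenerating fibre markers and 6 of 7 macrophage markers rose, where 14.7% of all genes did. Of the adipocyte markers 1 of 6 fell, against 10% of all genes. Of the muscle fibre markers 0 of 10 was called, against 24.8% of all genes, with a median of -0.75. These counts were not examined without replicate 2 of the PE group, where most calls over all genes were lost. In PE-treated MRL muscle 0 endothelial markers were called, against 9.73% of all genes. There 1 of 8 pericyte, 3 of 12 fibroblast and 4 of 7 macrophage markers rose, where 5.95% of all genes did. Of the markers of muscle fibres, regenerating fibres and adipocytes, 0 were called. Nearly all calls over all genes in that comparison were lost without replicate 2 of its PE group. The part of these cell types in the values of the contractile genes was not tested.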

How the data were processed

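Transcripts had been quantified by the authors with kallisto against the Ensembl GRCm39 cDNA and summed to genes with tximport (lengthScaledTPM). The authors kept genes above 1 CPM in at least 3 libraries, applied TMM factors (edgeR) and deposited the result as log2 CPM with a prior count of 2. The lowest value, -3.65, is a count of 0, which gives a mean effective library of 25149678 reads and 0.119 CPM for 3 counts. Of 14160 rows, 1 without a symbol was left out. CPM was recovered by subtracting the prior, 0.0795 CPM, and this floor covers counting error only. The 95% intervals in the plots are those of limma and rest on the spread between libraries.

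Groups were compared with limma 3.58.1 (R 4.3.3) on the deposited log2 values, with a coefficient per group over 24 libraries, a variance trend, 2-sided tests and Benjamini-Hochberg adjustment over all 14159 genes in each of 19 comparisons (16 of pairs of groups and 3 of strain responses). Genes were called at an adjusted p under 0.05. In simulated data for PE against uninjured B6 muscle over the 14159 genes, 64% of changes of 1.5 and 89% of changes of 3 on the log2 scale were called. Only 100 genes were changed by each amount there, with noise independent between genes. In the measured comparison 3508 genes were called, so these shares do not carry over to it or to the other comparisons. The genes and lists were chosen with earlier results of these data known. All listed genes in the matrix were named, with at most 4 per further list (called genes of largest difference) and the 10 genes most like the mean of the 8. More were named only for the relatives, after their values were seen. Symbols and starts came from GENCODE vM39 and RefSeq, copies from BLAST 2.17.0 (at least 90% identity), and figures from Python 3.11.15 and matplotlib 3.10.9. The tests were repeated on log2(CPM + 1), without genes averaging under 1 log2 CPM, with equal library totals, quantile normalization, library weights, the compared groups alone or a replicate block, and without each library. Separate mice share replicate numbers, and residuals of same-numbered libraries correlated above 0.1 in all 3 pairs in 1 comparison only, so no pairing was assumed. P-values set each difference against the spread between libraries of the same group, pooled over the 24 libraries and moderated by the variance trend.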

Additional observations from a re-analysis of the deposited data

How the results depend on the processing

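Counts of called genes among the 8 moved as follows. With PE against uninjured muscle in B6 mice, 2 were called, 1 with libraries scaled to equal totals, 1 with the replicate block, 3 after quantile normalization (*Actg2* added, at -2.49), 6 with library weights and 0 to 1 when leaving out single libraries. Library weights, estimated gene by gene because the default estimate did not converge, raised counts from 0 to 1 between strains after the control injury and with ECM, to 2 with PE, to 1 for ECM against uninjured, PE against the control injury and ECM against PE in B6 mice, to 1 for PE against the control injury in MRL mice and to 3 for the difference of PE responses. Fitting the compared groups alone gave 1 instead of 0 for ECM between strains and for ECM against uninjured B6 muscle. Equal totals and quantile normalization each gave 1 for PE between strains. Leaving out single libraries gave 0 to 1 for the strain comparisons with saline and PE, for PE against the control injury in both strains, for PE against uninjured and ECM against PE in MRL mice and for the difference of PE responses, and 0 in the other comparisons that had no call. The weights ran from 0.0939 for replicate 2 of PE-treated MRL mice to 5.93 for replicate 1 of PE-treated B6 mice. The cause of these moves was not tested. Of the differences printed for single genes, 3 changed sign, none of them called. With libraries scaled to equal totals, *Mylk* and *Smtn* were 0.15 and 0.21 higher with PE than in uninjured B6 muscle, and *Smtn* was 0.0696 higher with library weights. Leaving out single libraries, *Smtn* ran from -0.40 to 0.0876 there, and the difference of the saline responses of *Lmod1* from -0.0614 to 1.19. Outside the 8 genes, and without *Mylk2* and *Lmod3*, 21 calls were named for that comparison. Leaving out replicate 2 of the PE-treated B6 mice ended 19 of them. Leaving out PE replicates 1 and 3 ended 8 and 0, and leaving out uninjured replicates 1, 2 and 3 ended 12, 6 and 11. Medians of the 8 genes near 0 also changed sign. In MRL mice, leaving out single libraries gave -0.0616 to 0.25 for the control injury against uninjured muscle, -0.0071 to 0.94 for ECM against uninjured muscle and -0.19 to 0.60 for ECM against PE, which was -0.0229 with equal totals and -0.0654 with library weights.

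Replicate numbers share no mouse, and the replicate block, beside the call of *Lmod1* lost in PE-treated B6 muscle (-1.88, adjusted p = 0.0561), changed no other call of the 8 genes. Of the other genes named, it ended the calls of *Synpo2* in B6 and of *Csrp1*, *Ednra*, *Edn1* and *Tgfbr2* in MRL mice (adjusted p = 0.0502 and 0.0504 each). Scaling to equal totals shifted the median of all genes by up to 0.47 on the log2 scale. For PE against uninjured B6 muscle it called 3753 genes higher and 551 lower, where 2086 and 1422 were called as deposited and 1811 and 2019 after quantile normalization. Counts over all genes moved by over 1.5 times in 18 of 19 comparisons with library weights, 12 with the filter, 10 with the compared groups alone, 6 with equal totals and 5 each with the log2(CPM + 1) scale, quantile normalization and the block. Depth limits *Cnn1* and *Actg2*, and 3 libraries per group limit every value.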
